A study of Mus musculus with 15 samples.

Results

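The transforming growth factor beta (TGF-beta) genes described here are the ligand genes Tgfb1, Tgfb2 and Tgfb3, the receptor genes Tgfbr1 and Tgfbr2, the signal transducers Smad3 and Smad7, the matrix genes Fn1 and Thbs1, and the transcription factor gene Snai2. They were taken by symbol, and all 10 were present among the 24421 symbols tabulated at each time. The libraries come from a C57BL/6 mouse line established from adult bile ducts, with the genotype given as ITR-CreERT2;Klf5flox/flox in every sample. The groups were ethanol (3 libraries) and 4-OH tamoxifen (4) at 12 h, and ethanol (4) and 4-OH tamoxifen (4) at 24 h. Every group carries both the inducible recombinase and the floxed Klf5 alleles, so an effect of the drug or of recombinase activity cannot be told apart from one of Klf5 loss. The line is a single source, and the labels do not state separate cultures, so p-values measure the spread between these libraries only, which may be technical. In a bulk sample, fewer cells of a type and less RNA per cell cannot be told apart.

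Each time has its own table of folds of tamoxifen over ethanol made by the authors, with no value per library. The mean normalised counts add up to 13.9 M per library at 12 h and 11.8 M at 24 h. Klf5 itself was lower in the authors' deposited table at both times, with log2 folds of -1.29 (SE 0.23) and -1.72 (SE 0.08). The biliary label was checked on 11 markers: the keratin gene Krt19, Krt8, Krt18, Sox9 and Spp1 had means of 742 to 48237 normalised counts at 12 h and 767 to 21895 at 24 h, whereas Epcam stood at 15.7 and 9.56. Of 12 fibroblast and stellate cell markers, 10 had a mean of 0 at 12 h and 7 at 24 h. Their summed level, scaled to the table's total as CPM, was 2.17 CPM in ethanol and 2.14 in tamoxifen libraries at 12 h, with 0.895 and 1.15 for the later time. Col1a1 made up most of it, with a mean of 29.6 normalised counts at 12 h and 10.8 at 24 h, and Col1a2, Col3a1, Dcn, Lum, Lrat and Dpt had a mean of 0 at both times. Endothelial markers had a mean of at most 1.46 normalised counts at either time. Immune markers summed to 5.63 CPM in ethanol and 5.83 in tamoxifen libraries at 12 h and to 6.89 and 6.24 at 24 h, and hepatocyte markers to 132 and 153 and to 60.3 and 63.1. Cd68 made up most of the immune sum, with means of 76.4 normalised counts at 12 h and 76.1 at 24 h. Apoa1 (1291 and 448) and Ttr (685 and 267) made up most of the hepatocyte sum. The other hepatocyte markers had means of at most 12.6, with Alb at 3.68 and 1.48 and Cyp2e1 at 0 at both times. Of the 11 biliary markers 1 was called at 12 h and 4 at 24 h, and the part of marker shifts in the results was not tested.

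TGF-beta ligands are secreted in a latent complex and are released from it by integrins, proteases and thrombospondin. The free ligand binds the type II receptor Tgfbr2, which phosphorylates the type I receptor Tgfbr1, and this receptor phosphorylates Smad2 and Smad3. Smad7 is induced by the pathway and blocks the receptor, and fibronectin (Fn1), thrombospondin 1 (Thbs1) and the repressor Slug (Snai2) are among the genes that the pathway can induce in epithelial cells. In the liver the pathway restrains epithelial growth and drives matrix deposition, and biliary cells are both a source and a target of its ligands.

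The promoter windows of 3 members are shown because the ligand gene Tgfb2 and the transducer gene Smad3 were both higher at 24 h while the ligand gene Tgfb1 was not called, which lets their sequences be read side by side. Each is the RefSeq window on GRCm38.p6 from 250 bases before to 50 after the start site, 5′ to 3′ on the gene's strand. Capitals mark CACCC and its reverse complement GGGTG, the core that Krüppel-like factors are known to bind. Entries were found for 5 of the 10 members.
Tgfb2, chr1:186705940-186706239, minus strand: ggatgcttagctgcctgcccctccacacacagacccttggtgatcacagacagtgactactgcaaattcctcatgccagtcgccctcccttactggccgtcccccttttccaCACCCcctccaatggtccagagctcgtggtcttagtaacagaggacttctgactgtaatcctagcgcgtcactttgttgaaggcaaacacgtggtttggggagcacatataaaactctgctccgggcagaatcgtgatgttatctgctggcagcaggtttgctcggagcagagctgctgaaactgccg
Smad3, chr9:63757945-63758244, minus strand: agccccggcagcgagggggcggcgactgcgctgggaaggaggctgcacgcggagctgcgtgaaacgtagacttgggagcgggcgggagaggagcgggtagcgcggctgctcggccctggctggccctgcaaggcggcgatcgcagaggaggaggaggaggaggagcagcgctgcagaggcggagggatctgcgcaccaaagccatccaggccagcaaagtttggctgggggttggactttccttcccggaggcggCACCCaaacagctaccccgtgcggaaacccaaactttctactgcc
Tgfb1, chr7:25686752-25687051, plus strand: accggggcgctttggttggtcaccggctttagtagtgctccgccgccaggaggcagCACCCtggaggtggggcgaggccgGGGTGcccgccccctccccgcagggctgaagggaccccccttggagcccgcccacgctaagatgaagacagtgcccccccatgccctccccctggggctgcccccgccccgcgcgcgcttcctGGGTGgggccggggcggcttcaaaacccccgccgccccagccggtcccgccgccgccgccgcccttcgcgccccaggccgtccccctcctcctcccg
The Tgfb2 window held 1 match to CACCC, that of Smad3 1 and that of Tgfb1 3. A match occurs in 57.5% of the 32851 promoter windows of the same table, so the letters are common. CAGAC, a Smad-binding core, was found 2 times in the Tgfb2 window and 0 times in those of Smad3 and Tgfb1, against 49.6% of all windows with a match. The matches in Tgfb2 began at -221 and -204, with the start site counted as 0. The GC box GGGCGG was matched 6 times in Tgfb1, 2 times in Smad3 and 0 times in Tgfb2, and 35.7% of all windows hold it. GGCGC, the GC-rich Smad core (36.9% of windows), was matched 2 times in Tgfb1 and in neither of the other windows. The Snail and Zeb E-box CAGGTG (20.2% of windows) and the AP-1 element TGANTCA (7.81%) were not found in these 3 windows. Both strands were searched for each motif, and no matches overlapped in these windows. The windows also differ in base composition, with a GC content of 54.3% for Tgfb2, 67.7% for Smad3 and 77.0% for Tgfb1, against a median of 52.7%. A match is a description of the letters only.

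Between tamoxifen and ethanol at 24 h, 4 of the 10 members rose and none fell by the authors' Wald test with an adjusted p under 0.05, namely Tgfb2, Smad3, Fn1 and Thbs1. Across all genes with an adjusted p, 5.9% rose and 6.52% fell, 12.4% in all. The 24 h log2 folds of the members were all above 0 in the authors' deposited table, from 0.02 to 1.04, with a median of 0.16 against a median of -0.0004 over 11648 genes. At 12 h, 0 of the 9 members with an adjusted p were called, where 0.943% of genes were. At an unadjusted p under 0.05 there were 4 members at 12 h, Tgfb2, Tgfb3, Smad3 and Thbs1, all of them higher, where 1.97% of genes with a p were higher at that cut-off. The median log2 fold of the members at 12 h in the authors' deposited table was 0.28, with 7 above and 3 below 0, against -0.01 over 13044 genes. The members were chosen with earlier results of these data known, so these counts and medians beside those of all genes are a description.

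**Figure D1:**
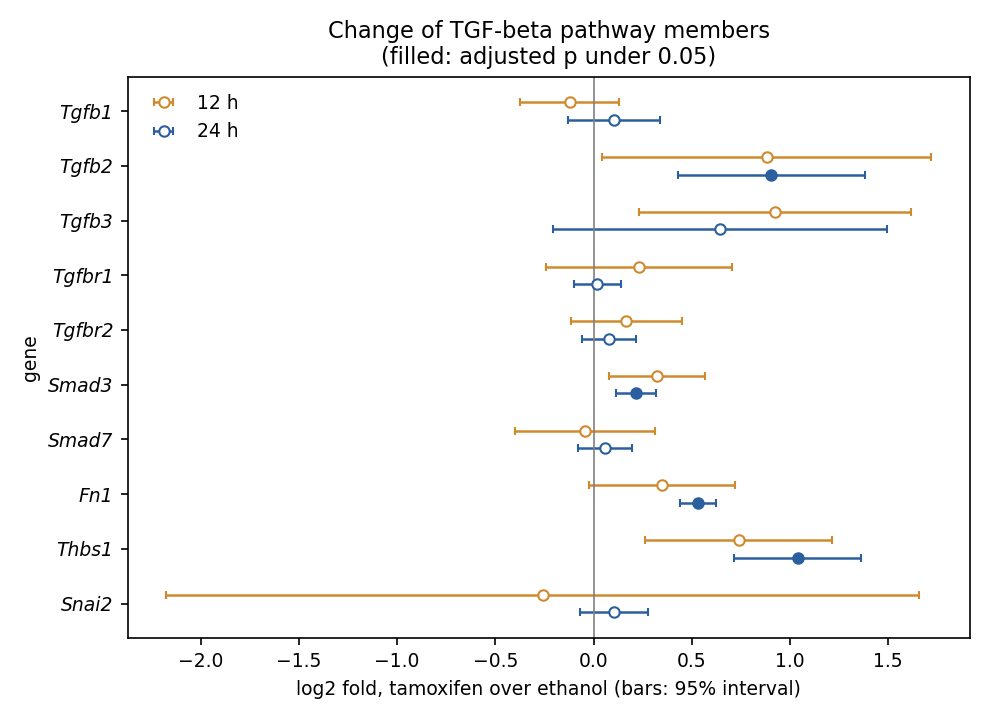
Log2 fold of tamoxifen over ethanol for each of the 10 members (x axis), at 12 h and 24 h. Points are the authors' estimates, bars their 95% intervals, and filled points passed an adjusted p under 0.05; the 4 filled points, Tgfb2, Smad3, Fn1 and Thbs1, all belong to 24 h and lie to the right of 0.

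The ligand genes differed in level and in change. Tgfb1 (chromosome 7, 25687002 to 25705077, GRCm38, forward strand), the most studied isoform, had an implied level of 509 normalised counts per library in ethanol and 548 in tamoxifen at 24 h, and 713 and 656 at 12 h. Implied levels were computed from the authors' mean and fold. The corresponding log2 folds in the authors' deposited table were -0.12 (SE 0.13) at 12 h and 0.11 (SE 0.12) at 24 h, with adjusted p of 0.999 and 0.660. Its 95% interval at 24 h ran from -0.13 to 0.34, so a rise of more than 0.34 lies outside it. The Tgfb1 SE at 24 h was 1.59 times that of genes of similar mean.

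Tgfb2 (chromosome 1, 186622792 to 186705989, reverse strand) encodes a ligand that needs the co-receptor betaglycan for efficient binding. It rose at 24 h, from an implied 25.5 to 47.7 normalised counts per library. For this rise the authors' deposited table has a log2 fold of 0.91 (SE 0.24, 95% interval 0.43 to 1.38) and 0.00327 as the adjusted p. The levels at 12 h were 14.9 in ethanol and 27.5 in tamoxifen, and the fold was of nearly the same size, 0.88 (SE 0.43), although the authors' deposited table puts its adjusted p at 0.789. At that SE a 12 h fold had to reach 1.497 to be called, taking the smallest Wald statistic of any called gene as the limit. Tgfb2 is a low-count gene, and counting error alone gives an SE of 0.18 at 24 h.

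Tgfb3 (chromosome 12, 86056745 to 86079041, reverse strand), the third ligand, had 20.2 (ethanol) and 38.3 (tamoxifen) normalised counts at 12 h, and 10.4 and 16.2 at 24 h. Its log2 folds in the authors' deposited table were 0.92 (SE 0.35, unadjusted p = 0.00869, adjusted p = 0.375) and 0.64 (SE 0.43, adjusted p = 0.386). Neither was called, and the Tgfb3 mean at 24 h, 13.3, is near the lowest mean that has an adjusted p, 7.34. Other gene models share 12.4% of the Tgfb3 exon bases in the GENCODE annotation, and the kit does not mark strand, so part of these few reads may belong to them.

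The receptor genes were among the members with the smallest folds at 24 h. Tgfbr1 (chromosome 4, 47353222 to 47414931, forward strand) had implied levels of 1039 in ethanol and 1053 in tamoxifen. Tgfbr2 (chromosome 9, 116084293 to 116175360, reverse strand) had 1379 and 1457. In the authors' deposited table their log2 folds at 24 h were 0.02 (SE 0.06, 95% interval -0.10 to 0.14) and 0.08 (SE 0.07, 95% interval -0.06 to 0.22), with adjusted p of 0.894 and 0.540. These intervals leave out a rise of more than 0.14 for Tgfbr1 and 0.22 for Tgfbr2. At 12 h the levels were 514 and 603 for Tgfbr1 and 1218 and 1368 for Tgfbr2. The 12 h log2 folds in the authors' deposited table, 0.23 (SE 0.24) and 0.17 (SE 0.14), were not called, with an adjusted p of 0.999 for both genes, and their intervals were wider, up to 0.70 and 0.45.

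The signal transducer and the inhibitor did not share a call. Smad3 (chromosome 9, 63646767 to 63757994, reverse strand), which carries the signal to the nucleus, rose at 24 h from an implied 3508 to 4075 normalised counts per library, a gain of 16.2%. Its 24 h log2 fold in the authors' deposited table was 0.22 (SE 0.05), with an adjusted p of 0.000808. At 12 h it stood at 3071 and 3838, and the authors' deposited table lists 0.32 (SE 0.12, unadjusted p = 0.0101, adjusted p = 0.401). The Smad3 estimate at 12 h was thus not smaller than that at 24 h, and its SE was larger. Smad7 (chromosome 18, 75367529 to 75395935, forward strand), the inhibitory Smad, had 1057 in ethanol and 1102 in tamoxifen at 24 h, and 1288 and 1249 at 12 h. The Smad7 log2 folds in the authors' deposited table, 0.06 (SE 0.07) at 24 h and -0.04 (SE 0.18) at 12 h, were not called (adjusted p = 0.674 and 0.999). Its 24 h interval, -0.08 to 0.20, includes 0 and leaves out a change the size of that of Fn1 or Thbs1.

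Fn1 (chromosome 1, 71585520 to 71653200, reverse strand) encodes fibronectin, a matrix glycoprotein that cells bind through integrins. It rose at 24 h from an implied 21159 to 30576 normalised counts per library, or from 1786 to 2582 CPM, a gain of 44.5%. The log2 fold of Fn1 in the authors' deposited table was 0.53 (SE 0.05, 95% interval 0.44 to 0.62), with an adjusted p of 5.91e-27. Of the 687 rises at 24 h it had the smallest p, and of the 11648 genes with an adjusted p it had the largest gain in counts, 9417 per library, while its fold ranked 154 among the rises. The spread between libraries that the authors' SE implies for Fn1 at 24 h was a coefficient of variation of 4.56%, small beside the change. At 12 h the levels were 10752 and 13706, and Fn1 was not called (log2 fold 0.35, SE 0.19, unadjusted p = 0.0644, adjusted p = 0.927 in the authors' deposited table). The coefficient of variation at 12 h was 17.2%, and a fold had to reach 0.66 to be called there, which is above the 24 h fold.

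Thbs1 (chromosome 2, 118111876 to 118127133, forward strand) encodes thrombospondin 1, a matrix protein that can release TGF-beta from its latent complex. It had the largest fold of the members at 24 h, from an implied 154 to 316 normalised counts per library. The authors' deposited table records a log2 fold of 1.04 (SE 0.16, 95% interval 0.72 to 1.36) and an adjusted p of 1.78e-08. Among the rises at that time its p ranked 39 and its fold 25. At 12 h the levels were 386 and 645, and the log2 fold of 0.74 (SE 0.24) had p-values of 0.00228 before and 0.150 after adjustment, per the authors' deposited table. The SE of Thbs1 was large for its level at both times, 1.56 and 1.57 times that of genes of similar mean. The authors' fit thus gave it a larger spread than most such genes.

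**Figure D2:**
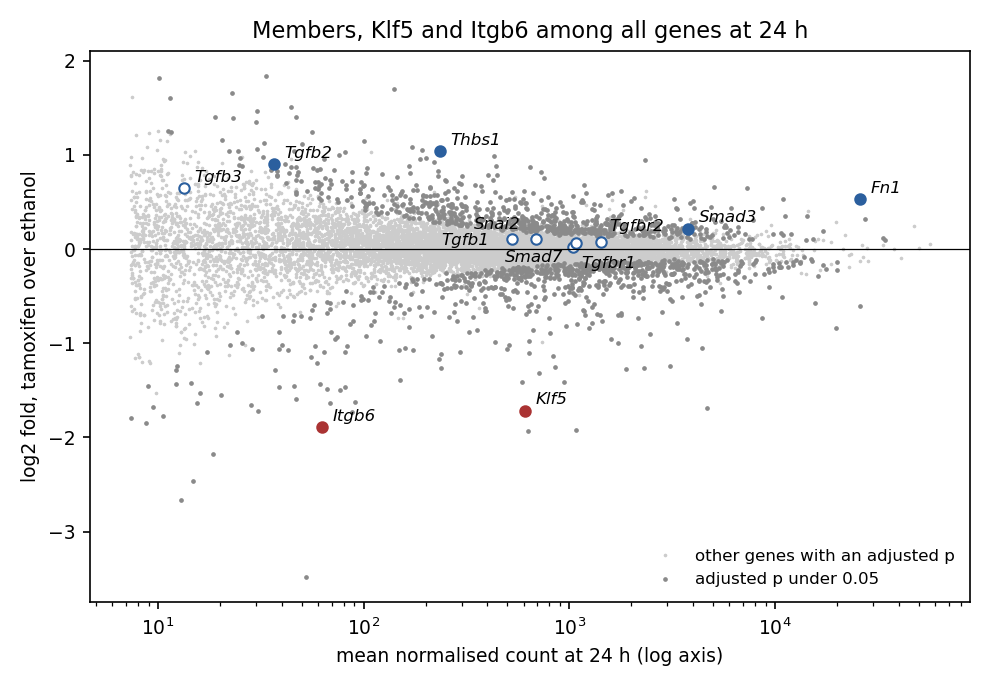
Log2 fold at 24 h (y axis) against mean normalised count on a log axis (x axis) for all genes with an adjusted p in grey, the called ones darker. Members are blue and Klf5 and Itgb6 red, filled where called; Fn1 stands far to the right with a log2 fold of 0.53, and Thbs1 lies highest of the members at 1.04.

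Snai2 (chromosome 16, 14705852 to 14709385, forward strand) encodes Slug, a repressor of E-cadherin transcription. At 24 h its implied levels were 665 in ethanol and 715 in tamoxifen libraries, with a log2 fold of 0.10 (SE 0.09, 95% interval -0.07 to 0.28) and 0.530 as its adjusted p, per the authors' deposited table. At 12 h Snai2 has a log2 fold of -0.26 with an SE of 0.98 and a blank p in the authors' deposited table, the single gene of that table with a fold and no p. That SE was 5.34 times that of genes of similar mean and corresponds to a coefficient of variation of 88.5% between libraries, against 7.90% at 24 h. The implied 12 h levels, 283 in ethanol and 237 in tamoxifen, therefore say little, and the interval runs from -2.17 to 1.66. Which library or libraries carried the spread was not tested, since no value per library was used here.

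**Figure D3:**
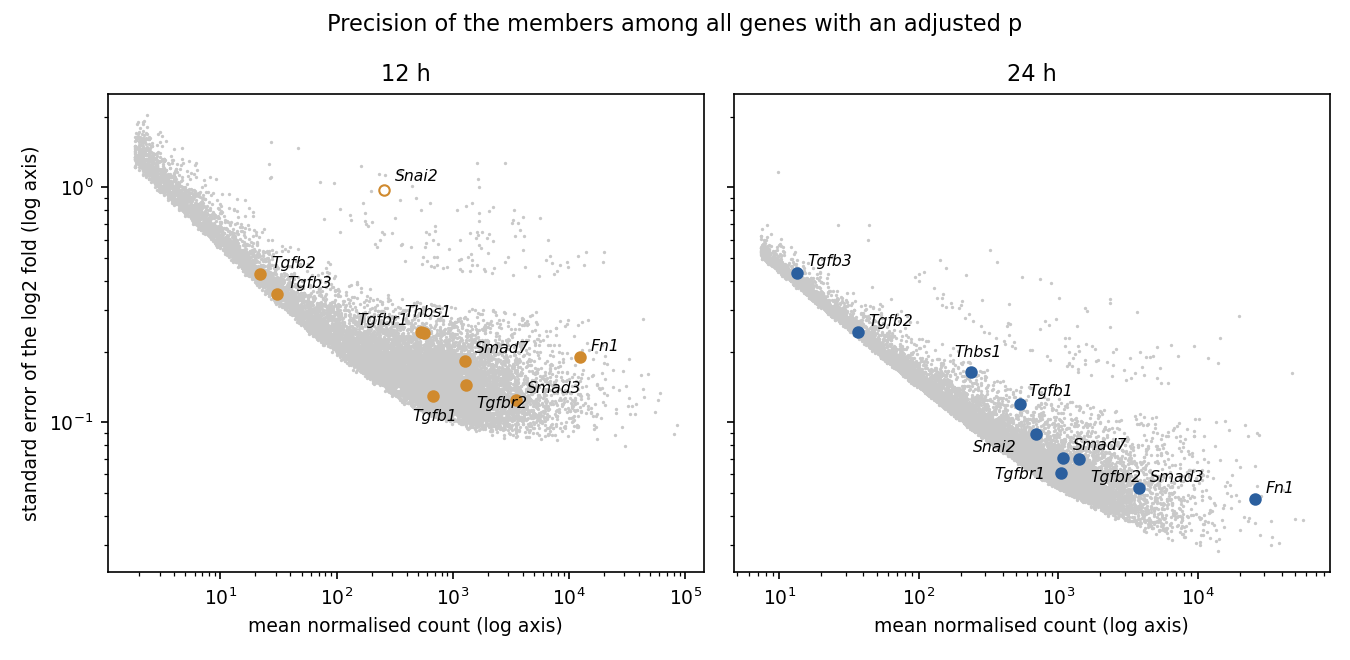
Standard error of the log2 fold (y axis, log) against mean normalised count (x axis, log) for all genes with an adjusted p in grey and the members in colour, at 12 h on the left and 24 h on the right. Snai2 at 12 h, the open point, has an SE of 0.98 and lies above most genes of its mean, and Fn1 moves from 0.19 at 12 h to 0.05 at 24 h.

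The precision of the members differed between the times. Over the members the median SE was 0.21 at 12 h and 0.08 at 24 h, and over all genes with an adjusted p it was 0.18 and 0.09. The median coefficient of variation between libraries implied by the SEs of the members was 19.3% at 12 h and 7.10% at 24 h. A fold of the 24 h size could not have been called at 12 h for Tgfb2, Smad3 or Fn1, for which 1.497, 0.44 and 0.66 were needed. For Thbs1 the fold needed at 12 h was 0.85.

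Whether a member's response changed from 12 h to 24 h was tested directly on the difference of the log2 folds. None of the 9 members with a p at both times passed (0 of 9 by Benjamini-Hochberg adjustment over 14981 genes, and 0 at an unadjusted p under 0.05), where 0.0134% of genes passed and 1.64% had an unadjusted p under 0.05. The difference for Thbs1 was 0.30 (SE 0.29, 95% interval -0.27 to 0.87) and for Fn1 0.18 (SE 0.20, interval -0.20 to 0.56). For Smad3 it was -0.11 (SE 0.14, interval -0.37 to 0.16), and for Tgfb2 0.02 with an interval from -0.94 to 0.99. These intervals are wide enough to hold a change of the same size as several of the folds, so they do not show that the times were alike. With both times combined by inverse variance, a calculation added after the values were seen, 5 members rose, where 4.84% of genes did. They were Tgfb2, Smad3, Fn1, Thbs1 and, in addition, Tgfb3 with a combined log2 fold of 0.81 (SE 0.27, adjusted p = 0.0326 over all genes, by the normal test of this combined fold).

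Levels were compared between members only per kilobase of exon. In ethanol libraries at 24 h the order was Fn1 (1811 normalised counts per kb), Smad3 (633), Snai2 (329), Smad7 (234), Tgfbr2 (168), Tgfbr1 (159), Tgfb1 (101), Thbs1 (25.3), Tgfb2 (4.397) and Tgfb3 (3.07). Tgfbr2 and Tgfbr1 lay within 2 standard errors of each other, as did Tgfb2 and Tgfb3, and the other neighbours lay further apart. Tgfb1 was thus the most abundant ligand gene by this scale in both treatments. At 12 h Fn1 (920), Smad3 (554) and Smad7 (285) led in ethanol, and the neighbours from Tgfbr2 down to Thbs1 each lay within 2 standard errors. That chain passes through Snai2 (140, SE 51.2% of its level), which stood between Tgfb1 (141, SE 6.76%) and Tgfbr1 (78.6, SE 12.6%). It does not show that the genes at its ends were alike. Tgfb3 (5.96) stood above Tgfb2 (2.58) at 12 h. Lengths are the union of GENCODE exons, which need not be the gene models the authors counted on.

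**Figure D4:**
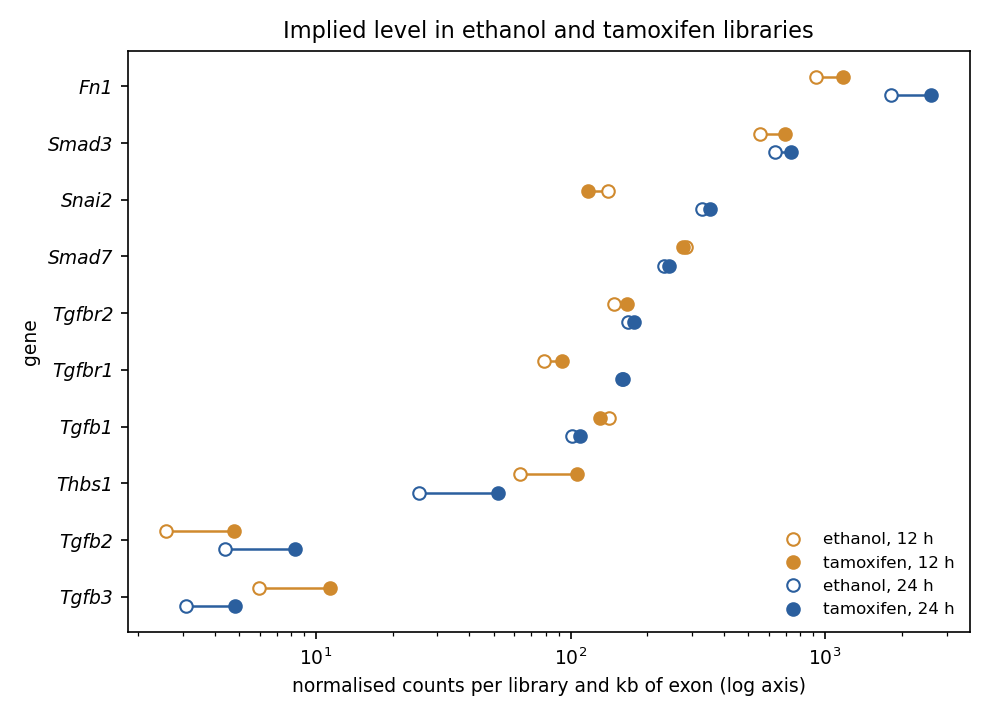
Implied level of each member in normalised counts per library and kb of exon (x axis, log), in ethanol (open) and tamoxifen (filled) libraries at 12 h and 24 h. Fn1 leads at 920 to 2617, Tgfb2 and Tgfb3 are lowest, and the line between 2 points is the change within a time.

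Levels also moved between the times in both treatments, side by side and without a test, since the tables were normalised separately. In CPM, Fn1 was 2.31 times as high at 24 h as at 12 h in ethanol and 2.62 times in tamoxifen libraries. Tgfbr1 was 2.37 and 2.05 times as high, Tgfb2 1.999 and 2.03 times, and Snai2 2.76 and 3.54 times, the last resting on the uncertain 12 h value. Thbs1 went the other way, at 0.467 and 0.574 of its 12 h level, and Tgfb3 at 0.605 and 0.498. Thbs1 and Tgfb2, the members with the largest folds among the 24 h calls (106% and 87.3% higher with tamoxifen), thus moved in opposite directions with time.

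The other genes of the pathway were described in 8 lists, holding 168 genes beside the members. At 24 h, 14 rose and 13 fell of 108 with an adjusted p, or 25.0% beside 12.4% of all genes, and their median log2 fold was 0.02. At 12 h, 2 rose and 5 fell of 123, where 0.215% of all genes rose and 0.728% fell. The lists were chosen with results of these data known, so the shares are a description.

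The list of genes that activate or hold latent TGF-beta does not include Thbs1, which was counted with the members and rose at 24 h. Of its 11 genes with an adjusted p at 24 h, 4 fell and 0 rose, or 36.4% beside 12.4% of all genes. The median log2 fold of the 11 was -0.07. Itgb6, the beta chain of the integrin alphavbeta6 that frees TGF-beta from its latent complex in epithelia, fell at both times. It went from an implied 439 to 222 normalised counts at 12 h and from 99.04 to 26.7 at 24 h. Its log2 folds in the authors' deposited table were -0.99 (SE 0.16, adjusted p = 8.95e-07) and -1.89 (SE 0.33, adjusted p = 7.76e-07), and the difference between times, -0.91 (SE 0.37), had an unadjusted p of 0.0150 and an adjusted p of 0.9999 by the test over all genes. At 24 h the latent TGF-beta binding protein genes Ltbp4 and Ltbp1 were at -0.33 (SE 0.09) and -0.18 (SE 0.06), and the membrane metalloproteinase gene Mmp14 was at -0.14 (SE 0.04), all called in the authors' deposited table. The partner chain Itgav had 0.07 (SE 0.06) and was not called in the authors' deposited table, and Itgb8, the other epithelial activator chain, had a mean of 0.499 normalised counts.

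Among 6 accessory receptors with an adjusted p at 24 h, the neuropilin genes moved in opposite directions. They were the only calls of that list, 33.3% beside 12.4% of all genes. Nrp1 rose with a log2 fold of 0.49 (SE 0.07) and Nrp2 had -0.63 (SE 0.14) in the authors' deposited table. Betaglycan (Tgfbr3), the co-receptor of the Tgfb2 product, had a mean of only 11.5 normalised counts and was not called. Of 27 Smads and their regulators, 2 rose and 1 fell at 24 h, or 11.1%, near the 12.4% of all genes. The corepressor gene Tgif1 and the deubiquitinase gene Usp9x rose by 0.21 (SE 0.05) and 0.21 (SE 0.06) per the authors' deposited table, and Nedd4l, a ubiquitin ligase that acts on Smads, was at -0.23 (SE 0.06). The Smad3 partner genes Smad2 at 0.09 (SE 0.06) and Smad4 at 0.02 (SE 0.05) were not called in the authors' deposited table.

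Response genes of TGF-beta did not move one way. At 24 h 4 rose and 1 fell of 17 with an adjusted p, or 29.4% beside 12.4% of all genes. The median log2 fold of the 17 was 0.04. Ctgf, a matricellular growth factor gene and also a YAP target, fell from 5946 to 2877 at 24 h, and its log2 folds in the authors' deposited table were -1.01 (SE 0.15) and -1.05 (SE 0.10) at the times in turn. Pdgfb at 0.53 (SE 0.12) and the BH3-only gene Bmf at 0.43 (SE 0.08) were among the rises at 24 h in the authors' deposited table. Tgif1, which is in this list too, was another. Pdgfb was also called as a rise at 12 h, at 0.44 (SE 0.13, adjusted p = 0.0422 by the authors' Wald test). Over the alternatives its 12 h adjusted p ran from 0.0367 to 0.112, so that call was not kept in all of them. The Smad target genes Skil at -0.03 (SE 0.07) and Pmepa1 at -0.19 (SE 0.10), named after their values were seen, were not called in the authors' deposited table, as Smad7 was not.

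Matrix genes other than Fn1 and Thbs1 split at 24 h, with 2 rises and 2 falls among 13 with an adjusted p. That was 30.8%, beside 12.4% of all genes, and 11 of the 32 listed genes had a mean of 0. The tenascin gene Tnc rose from a low implied level of 14.6 to 52.3 normalised counts, with a log2 fold of 1.84 (SE 0.36) in the authors' deposited table, and Sparc, a matricellular glycoprotein gene, rose from 3195 to 4485. The proteoglycan gene Vcan was lower, at -0.79 (SE 0.11), as was the fibulin gene Fbln2, at -0.90 (SE 0.20) on the log2 scale in the authors' deposited table, the latter with an SE 3.97 times that of similar genes. The authors' deposited table also has Fbln2 as called at 12 h, with -0.65 (SE 0.16). The thrombospondin family gene Thbs2 had a mean of 0 at both times, and Thbs3 at a mean of 23.2 had a log2 fold of -0.05 (SE 0.31) at 24 h in the authors' deposited table.

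Receptors of fibronectin and thrombospondin counted 2 rises and 2 falls of 11 at 24 h, or 36.4% beside 12.4% of all genes. The main fibronectin receptor chains Itga5 at 0.04 (SE 0.06) and Itgb1 at 0.02 (SE 0.06) were not called in the authors' deposited table. Itga3, an integrin chain better known for binding laminin, rose by 0.44 (SE 0.07) and the syndecan gene Sdc4 by 0.23 (SE 0.06) on the log2 scale, per the authors' deposited table. Sdc1 stood at -0.48 (SE 0.04) and the urokinase receptor gene Plaur at -1.24 (SE 0.08), per the authors' deposited table. Both also fell at 12 h, where the authors' deposited table has -0.38 (SE 0.10) for Sdc1 and -1.10 (SE 0.24) for Plaur. The 12 h call of Sdc1 was lost, with an adjusted p of 0.2002, when SEs below those of genes of similar mean were raised to them, and over all its alternatives the adjusted p ran from 0.0259 to 0.2002.

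Genes of the epithelial to mesenchymal transition other than Snai2 held 1 call at 24 h of 13 with an adjusted p. The share, 7.69% beside 12.4% of all genes, rests on that 1 gene and is too coarse to be told from it. The called gene was Esrp2, an epithelial splicing regulator gene, at -0.30 (SE 0.07) in the authors' deposited table. E-cadherin (Cdh1) at -0.08 (SE 0.07), N-cadherin (Cdh2) at 0.02 (SE 0.04), vimentin (Vim) at -0.06 (SE 0.06) and Zeb1 at 0.12 (SE 0.06) were not called in the authors' deposited table. Snai1, which encodes the related repressor Snail, had a mean of 0.876 normalised counts at 24 h. In the list of the BMP and activin branch, which holds other genes beside ligands and receptors, 4 rose and 1 fell of 17 at 24 h. That was 29.4%, beside 12.4% of all genes. Bmp4 was at -0.40 (SE 0.09) in the authors' deposited table. Gdf15 at 0.25 (SE 0.06), the procollagen protease gene Bmp1 at 0.27 (SE 0.08), the receptor gene Bmpr1a at 0.14 (SE 0.05) and the target gene Id2 at 0.42 (SE 0.15) rose in the authors' deposited table. The adjusted p of Id2 and Bmpr1a became 0.0657 and 0.0539 when every gene that has a p entered the adjustment. Over their alternatives the adjusted p ran from 0.0424 to 0.0657 for Id2 and from 0.0283 to 0.104 for Bmpr1a.

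**Figure D5:**
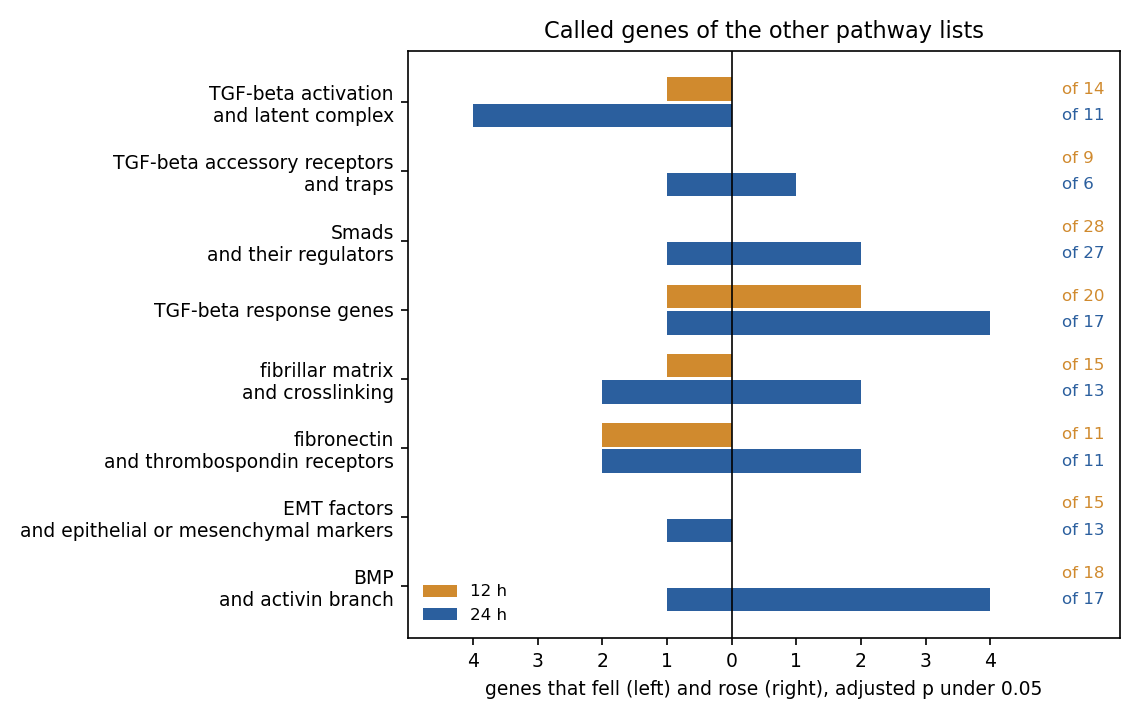
Number of genes that fell (left of 0) or rose (right of 0) at an adjusted p under 0.05 in each of the 8 pathway lists, members left out, at 12 h and 24 h, with the number that had an adjusted p at the right edge. Activation genes show 4 falls and 0 rises at 24 h, and TGF-beta response genes 4 rises and 1 fall. Of all genes with an adjusted p, 12.4% were called at 24 h.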

How the data were processed

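Single-end RNA-seq libraries came from the TruSeq RNA v2 kit, as the labels' protocols say, and were grouped from their titles. This kit is known not to mark strand. HISAT2, DESeq2 and mm10 are named in the submitters' processing notes without versions or roles, and counter and annotation were not given in the sources used here. Per the file headers, the deposited tables give a mean normalised count per gene (a signal averaged over libraries), a log2 fold with its SE, a Wald score, a p-value and an adjusted p-value, for each time separately. The authors' adjusted p is left blank where the mean is low. It is also blank for Snai2 at 12 h, whose mean was 257. Genes with an adjusted p number 13044 (12 h) and 11648 (24 h).

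A gene counts as called where its adjusted p is under 0.05. The direction of the folds was checked at 12 h, where single-read genes show 7 distinct means, 3 with negative and 4 with positive folds, matching 3 ethanol and 4 tamoxifen libraries. At 24 h the split is 4 and 4 and checks nothing, and the direction was taken from 12 h and from the fall of Klf5.

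Levels per group were implied from the mean, the fold and the number of libraries, and the coefficient of variation between libraries from the SE after removing counting error, taking size factors as 1 (they range from 0.934 to 1.07). The coefficient of variation is thus the spread that the authors' fit used, not one measured on single libraries. Intervals are 1.96 SE wide on each side. Each SE was set against that of similar genes, the running median of 201 neighbours ranked by mean. The smallest fold that could be called is the smallest absolute Wald score of a called gene, 3.50 at 12 h and 2.74 at 24 h, times the SE. The difference between times was divided by the root of the summed squared SEs, with a normal p and Benjamini-Hochberg adjustment over 14981 genes. The difference test was run on simulated folds drawn with the deposited SEs, so that run could not show whether those SEs are right. The implied levels and spreads were checked on simulated counts of known spread, in the 12 h group sizes only. The tools were scipy 1.17.1, pandas 2.3.3, numpy 2.4.6, matplotlib 3.10.9 and Python 3.11.15, with GENCODE M21 on GRCm38, the assembly that mm10 names.

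The members and lists were chosen with earlier results of these data known. The text names all members, up to 4 called genes per pathway list, time and direction by smallest p, Klf5 and Itgb6. Some genes that this rule would name are not reported here. Other genes are named as list members that were not called, after their values were seen. Alternatives covered the genes adjusted over, the threshold, centring and the SE, and those for the combined times and the pathway lists were chosen after seeing the data.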

Additional observations from a re-analysis of the deposited data

How the results depend on the processing

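All 110 alternative values of the member folds kept their side of the threshold. They covered other adjustment sets, thresholds of 0.01 and 0.1, centred folds and a raised SE. Only centring alters a fold itself, and no member changed direction under it. Under the other alternatives the direction was fixed in advance. The members called stayed at 0 at 12 h and 4 at 24 h, or 3 where the adjustment took in genes whose mean is 100 or more, which leaves Tgfb2 untested. Of the counts, 2 moved by more than 1.5 times. At 12 h the called genes of the pathway lists went from 7 to 4 at an adjusted p under 0.01, and the members called with both times combined went from 5 to 3 over genes whose mean is 100 or more, where Tgfb2 and Tgfb3 were not tested. Named genes of the pathway lists lost their call in 15 of their alternative values, and these alternatives were chosen after seeing the data. Their direction, too, could change only under centring, and it did not. No paired analysis was possible because the tables hold no value per library, and for the same reason no replicate was left out in turn. Depth limits Tgfb2 and Tgfb3, whose means were between 13.3 and 36.6 normalised counts.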
